A study of Mus musculus with 12 samples.

Results

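The 36 genes described here act in G2 and mitosis, from the cyclins and Cdk1 that start division to the kinesins and contractile proteins that finish it. They were listed by name, their probes were found through the RefSeq accession that the array gives each probe, and the brightest probe stood for each gene. All 36 were found and all 36 were among the 24519 genes tested, each of which had, in 1 transfection group or more, no array where its signal failed to rise well above background. C2C12 is a mouse myoblast line that divides in serum and can be made to fuse into myotubes, and expression in it was measured on 12 single-colour Agilent arrays, 3 in each of 4 groups. All groups were taken 72 h after a transfection, which was with a negative control of unstated kind, with the plasmid pcDNA3.1 (taken as empty, which the labels do not state), with pcDNA3.1-MEG3, or with an siRNA that the titles describe as a MEG3 knockdown. The titles of the pcDNA3.1 group read pat1, a name that they do not explain. The study asked which genes change when MEG3, a long noncoding RNA, is raised or lowered. The labels do not say whether replicates are separate cultures, nor what the siRNA sequence was or how many cells took up the DNA or RNA.

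Entry into mitosis is driven by Cdk1 bound to cyclin B, which Cdc25 phosphatases switch on and which is shut off when the anaphase-promoting complex marks cyclin B for destruction. Most genes of this stage are transcribed in G2, when B-Myb and FoxM1 act on promoters that carry a cell cycle homology region and boxes bound by NF-Y, and they are silenced by the DREAM complex in cells that stop dividing. Myoblasts must leave the cell cycle to form myotubes, so in muscle cells these genes are commonly read as a sign of proliferation.

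Levels are given on a log2 scale relative to each array's 75th percentile, which is 0, and differences are on the same log2 scale. Replicates 1 and 3 of every group differed by less than the noise between repeat spots of a probe (0.249 to 0.749 times it) and were counted as 1 sample, so each group has n = 2 and a p-value reflects the spread of those samples alone, which may be technical. Replicate 2 was kept as the second sample, although in both plasmid groups it too differed by less than that noise. A gene was called at an adjusted p under 0.05 in 1 limma fit over all genes. Meg3 itself went against the plasmid labels: 3 of 3 arrays labelled pcDNA3.1 showed it well above background by its brightest probe, whereas 0 of 3 labelled pcDNA3.1-MEG3, 0 of 3 siRNA arrays and 1 of 3 negative control arrays did. The plasmid groups are therefore named as labelled and no direction of MEG3 is drawn from them. Scans were not shared between negative control, plasmid and siRNA arrays, so in every comparison but the one between the plasmids scan and transfection cannot be told apart. Scan time and position were used here and no slide number, so which arrays shared a slide is not known. Negative control replicate 2 stood apart from replicates 1 and 3 of its group by 3.64 and 3.30 times the spot noise. Of 5 myoblast markers, Myod1, Cdh15 and Des were well above background on 12 of 12 arrays, Pax7 on 10 and Myf5 on 9, and on siRNA arrays against the negative control 2 rose and Myf5 fell (-2.87). In that comparison 8 of 8 myotube markers rose (median 3.73), as did 3 of 4 neural markers (median 2.70), 0 of 5 fibroblast, 1 of 4 adipocyte, 1 of 3 macrophage and blood (1 fell) and 0 of 3 endothelial markers. The summed level of the myotube markers was 5.84 to 5.998 on siRNA, 2.85 to 3.11 on negative control, 1.30 to 1.37 on pcDNA3.1 and 1.61 to 1.62 on pcDNA3.1-MEG3 arrays. Between the controls that sum followed Acta1 (2.86 on negative control and -0.20 on pcDNA3.1 arrays), whereas 7 of 8 markers were higher on pcDNA3.1 (median 0.94, with 2 called higher and 1 lower). The summed level of the neural markers was 0.28 to 0.36 on siRNA, -2.75 to -2.69 on negative control, -2.11 to -2.01 on pcDNA3.1 and -2.07 to -1.94 on pcDNA3.1-MEG3 arrays. The part of these markers in the differences below was not tested.

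Most of the 36 genes moved little between the groups. The distance from the lowest to the highest of the 4 group means had a median of 0.62, against 0.84 over all genes tested, and it was under 1 for 31 of the 36 (86.1%, against 59.1% of all genes). The exceptions were Aurkb (5.55), Cdc25c (2.62), Cdk1 (2.60), Melk (1.27) and Ndc80 (1.04). Aurkb was well above background on 0 of 3 arrays of each plasmid group and Cdc25c on 1 of 3 siRNA arrays. Their distances therefore include signal near background. All genes tested also include genes that are dim in some groups, and the 36 were not matched to them for brightness. The siRNA group had the highest mean for 19 of the 36 genes (52.8%, against 25.3% of all genes), and the group labelled pcDNA3.1-MEG3 had the lowest for 16 (44.4%, against 24.9%). The group labelled pcDNA3.1 was highest for 4 (11.1%, against 38.8%).

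**Figure D1:**
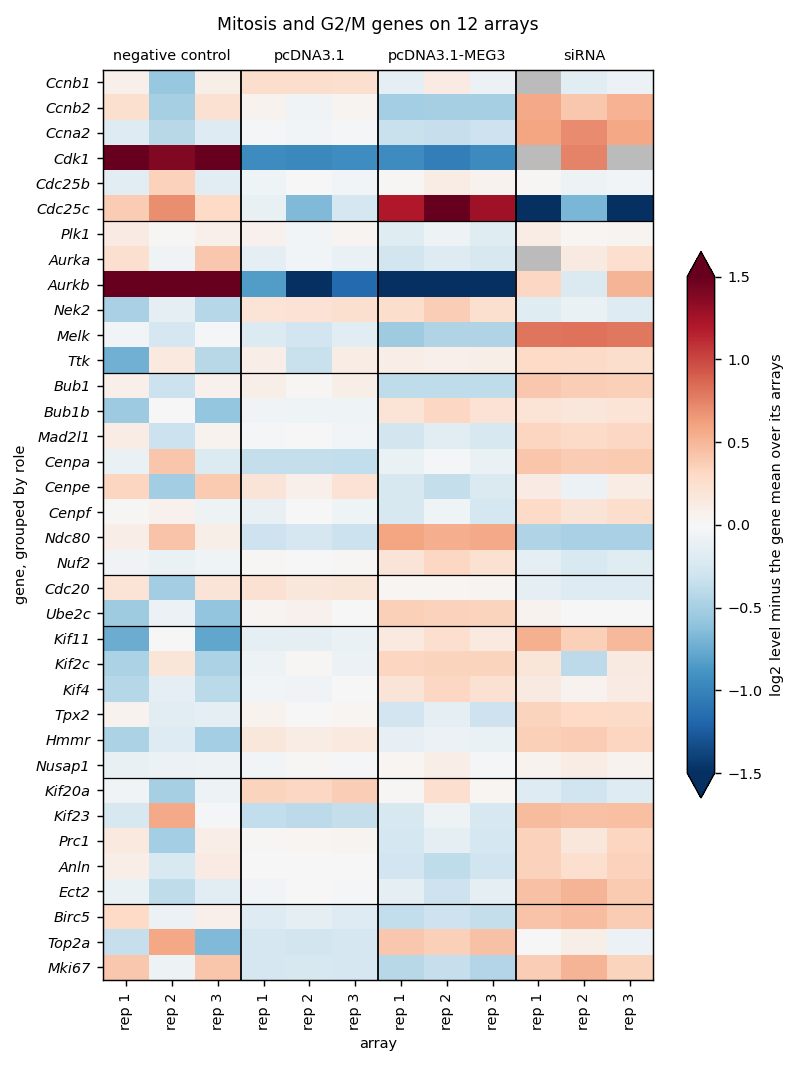
Level of each of the 36 genes (rows, grouped by role) on each of the 12 arrays (columns), as log2 level minus the gene's mean over its arrays, from blue (lower) to red (higher), with grey where the only spot was marked as outlying. Cdk1 and Aurkb stand out on the negative control arrays, Cdc25c and Ndc80 are high on arrays labelled pcDNA3.1-MEG3 and low on siRNA arrays, and Melk and Ccna2 are highest on siRNA arrays.

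On siRNA arrays against the negative control, 4 of the 36 genes rose and 3 fell, while 29 did not pass. Those called in either direction came to 19.4%, against 12.4% of all genes. By direction, the background was 7.75% higher and 4.64% lower. The genes that rose were Ccna2, Melk, Ect2 and Hmmr, each by less than 2-fold, and those that fell were Aurkb, Cdc25c and Ndc80. In RNA from whole cultures, fewer cells in mitosis and less RNA per such cell cannot be told apart. The median of the 36 was 0.25, against 0.06 for all genes, and 27 lay above 0 and 9 below. Arrays of both groups did not overlap for 18 genes that were higher (50%, against 27.7% of all genes) and for 5 that were lower (13.9%, against 17.1%).

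Among the cyclins and their partners, 1 of 6 rose and 1 fell (33.3%, against 12.4% of all genes). Ccna2 encodes cyclin A2, which works in S phase and G2. It read 2.41, 2.19 and 2.41 on the negative control arrays, 2.58, 2.56 and 2.59 on arrays labelled pcDNA3.1, 2.27, 2.26 and 2.30 on those labelled pcDNA3.1-MEG3, and 3.20, 3.31 and 3.18 on siRNA arrays. Every siRNA array lay above every other array, and Ccna2 rose 1.93-fold over the negative control (0.95, SE 0.14, adjusted p = 0.0142). Ccnb1, the cyclin B1 that activates Cdk1, read 2.96, 2.32 and 2.98 on negative control arrays, 3.15, 3.15 and 3.13 on pcDNA3.1 arrays and 2.74, 3.00 and 2.80 on pcDNA3.1-MEG3 arrays. Its siRNA values were 2.73 and 2.80 on replicates 2 and 3, the spot of replicate 1 being marked as not uniform and left out. The siRNA values lay inside the range of the negative control, whose replicate 2 was the lowest of all, and Ccnb1 differed by 0.12 (SE 0.24, adjusted p = 0.787). Ccnb2, cyclin B2, differed by 0.60 (SE 0.25, adjusted p = 0.178), with all siRNA arrays (2.62 to 2.80) above the negative control (1.73 to 2.47).

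Cdk1, the kinase at the centre of mitotic entry, was the member whose siRNA value was least well measured. It read 1.92, 1.49 and 1.93 on negative control arrays, -0.84, -0.86 and -0.83 on pcDNA3.1 arrays and -0.85, -0.93 and -0.85 on pcDNA3.1-MEG3 arrays. On siRNA arrays its single spot was marked as not uniform on replicates 1 and 3, so the fit used 0.84 from replicate 2 alone, and the marked spots read 0.92 and 0.87. The siRNA level thus lay between the plasmid arrays and the negative control, without overlap. The difference from the negative control was -0.86 (SE 0.24, adjusted p = 0.0825), and it passed with the marked spots kept (-0.84, adjusted p = 0.0356), an alternative added after those values were seen. Of the other two probes of Cdk1, one differed by -3.18 and the other by 0.24, both well above background on 10 of 12 arrays, so the probes did not give 1 size or direction.

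The Cdc25 phosphatases remove the inhibitory phosphates from Cdk1. Cdc25c read -5.00, -4.68 and -5.08 on negative control arrays, -5.49, -6.04 and -5.63 on pcDNA3.1 arrays, -4.18, -3.86 and -4.11 on pcDNA3.1-MEG3 arrays, and -7.01, -6.06 and -7.35 on siRNA arrays. It was well above background on only 1 of 3 siRNA arrays, so the drop from the negative control is given as at least 2.21-fold (measured -1.76, SE 0.40, adjusted p = 0.0422). That bound sets the negative control mean against, on each siRNA array, the higher of the probe's own signal and the lowest signal well above background. It holds only for the background correction of the scanner files. With normexp background correction Cdc25c differed by 0.01 (adjusted p = 0.995). Cdc25c entered the test only through groups other than siRNA, so its call is not independent of the filter on dim probes. Cdc25b stayed within 0.30 to 0.81 on all arrays and differed by -0.14 (SE 0.19, adjusted p = 0.699).

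Of 6 mitotic kinases, Melk rose and Aurkb fell (33.3%, against 12.4% of all genes). Melk, a kinase of dividing and stem-like cells, read 0.23, 0.01 and 0.26 on negative control arrays, 0.07, -0.02 and 0.10 on pcDNA3.1 arrays, -0.26, -0.18 and -0.19 on pcDNA3.1-MEG3 arrays, and 1.07, 1.08 and 1.05 on siRNA arrays. The siRNA arrays stood clear of all others, and the rise over the negative control was 1.92-fold (0.94, SE 0.14, adjusted p = 0.0147). Aurkb, the kinase of the chromosomal passenger complex that corrects faulty kinetochore attachments, read -2.48, -3.03 and -2.43 on negative control arrays and -5.62, -6.15 and -5.42 on siRNA arrays, an 8.52-fold drop (-3.09, SE 0.62, adjusted p = 0.0327). On 3 of 3 arrays in both groups the signal was well above background, and the groups did not overlap.

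Plk1, the polo-like kinase needed from mitotic entry to cytokinesis, read 0.70, 0.60 and 0.66 on negative control arrays, 0.64, 0.54 and 0.62 on pcDNA3.1 arrays, 0.40, 0.51 and 0.40 on pcDNA3.1-MEG3 arrays, and 0.69, 0.62 and 0.63 on siRNA arrays. The siRNA and negative control arrays overlapped, and the difference was -0.0005 (SE 0.13, adjusted p = 0.999). Aurka, which matures the centrosomes and spindle poles, differed by 0.07 (SE 0.17, adjusted p = 0.845), with siRNA replicate 1 left out as an outlying spot. Nek2, a centrosome-splitting kinase, differed by 0.16 (adjusted p = 0.557), and Ttk, the Mps1 kinase that starts checkpoint signalling, by 0.50 (SE 0.27, adjusted p = 0.296).

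The spindle checkpoint and kinetochore genes gave 0 higher and 1 lower of 8 (12.5%, near the 12.4% of all genes). Ndc80, the core microtubule-binding subunit of the outer kinetochore, read -0.61, -0.28 and -0.63 on negative control arrays, -1.03, -0.97 and -1.03 on pcDNA3.1 arrays, -0.12, -0.17 and -0.15 on pcDNA3.1-MEG3 arrays, and -1.17, -1.20 and -1.20 on siRNA arrays. All 4 groups were apart, siRNA lowest and pcDNA3.1-MEG3 highest, and the drop from the negative control was 1.67-fold (-0.74, SE 0.16, adjusted p = 0.0366). Nuf2, the partner of Ndc80 in the same complex, differed by -0.11 (SE 0.13, adjusted p = 0.629). The checkpoint proteins Bub1 (0.51, adjusted p = 0.108), Bub1b (0.47, adjusted p = 0.193) and Mad2l1 (0.42, adjusted p = 0.17) did not pass, although every siRNA array was above every negative control array for each. Cenpa, the histone of centromeres, differed by 0.26, Cenpf by 0.22 and the kinesin Cenpe by 0.10, with adjusted p from 0.362 to 0.867.

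Of the remaining genes, Hmmr and Ect2 rose and none fell. Hmmr, a spindle-pole protein, read 1.53, 1.80 and 1.48 on negative control arrays, 2.17, 2.11 and 2.15 on pcDNA3.1 arrays, 1.87, 1.90 and 1.89 on pcDNA3.1-MEG3 arrays, and 2.35, 2.38 and 2.32 on siRNA arrays. No siRNA array overlapped another group, and the rise over the negative control was 1.63-fold (0.70, SE 0.15, adjusted p = 0.0369). Ect2, the exchange factor that activates RhoA at the cleavage furrow, read 2.01, 1.72 and 1.93 on negative control arrays, 2.07, 2.11 and 2.07 on pcDNA3.1 arrays, 1.96, 1.80 and 1.97 on pcDNA3.1-MEG3 arrays, and 2.54, 2.61 and 2.50 on siRNA arrays. The siRNA arrays were again above all others, by 1.65-fold over the negative control (0.72, SE 0.15, adjusted p = 0.0359).

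Kif11, the kinesin that pushes spindle poles apart, had a difference of 0.82 that did not pass (SE 0.26, adjusted p = 0.0963): its siRNA arrays (-0.92 to -0.74) lay above negative control replicate 2 (-1.29) and well above replicates 1 and 3 (-2.03 and -2.06). The other spindle genes Tpx2 (0.40), Kif4 (0.37), Nusap1 (0.17) and Kif2c (0.03), and the cytokinesis genes Prc1 (0.45), Anln (0.35), Kif23 (0.23) and Kif20a (0.04), did not pass, with adjusted p from 0.112 to 0.959. Both genes of anaphase onset also failed to pass, Cdc20, the activator of the anaphase-promoting complex, at -0.02 (SE 0.24) and Ube2c, its ubiquitin-conjugating enzyme, at 0.33 (SE 0.18). Birc5, or survivin, differed by 0.38 (adjusted p = 0.154) and Top2a, the topoisomerase that untangles sister chromatids, by -0.01 (SE 0.34). Mki67, the Ki-67 proliferation marker, read 3.18, 2.70 and 3.19 on negative control arrays and 3.15, 3.28 and 3.11 on siRNA arrays. These overlapped, with a difference of 0.27 (SE 0.19, adjusted p = 0.429).

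**Figure D2:**
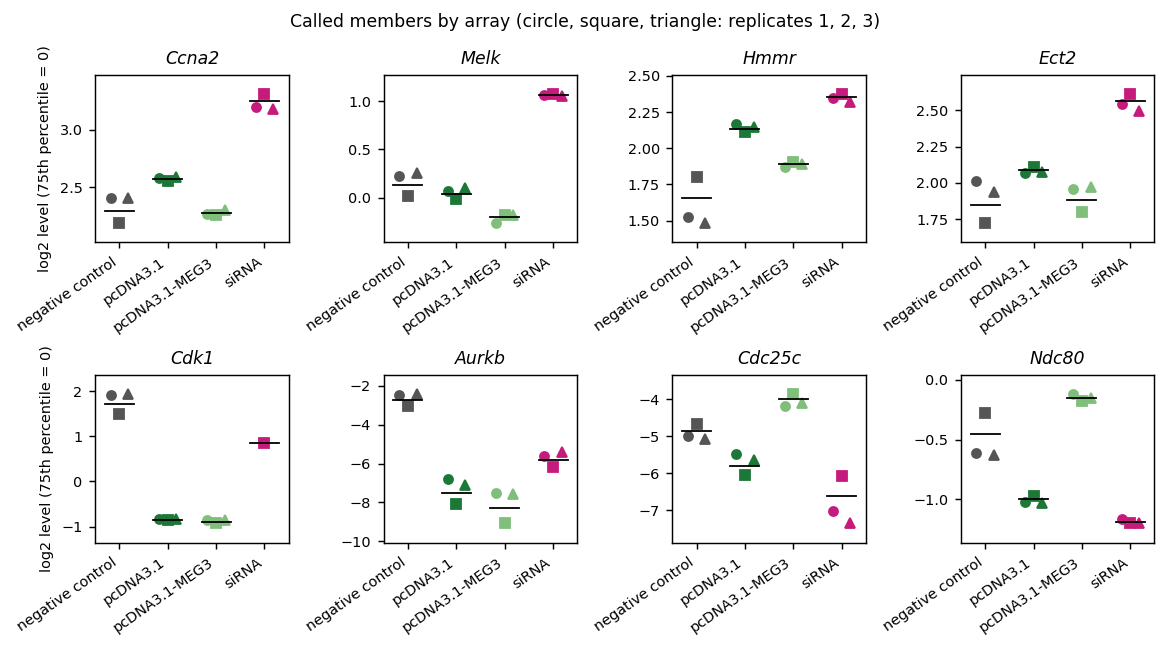
Log2 level (array 75th percentile = 0) of 8 genes called in at least 1 comparison, by group, with circles, squares and triangles for replicates 1, 2 and 3 and a bar at the group mean. Ccna2, Melk, Hmmr and Ect2 (upper row) are highest on siRNA arrays, and in the lower row Cdk1 and Aurkb are highest on negative control arrays while Cdc25c and Ndc80 are lowest on siRNA arrays.

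The counts changed with the samples in the fit. For such fits and for other settings, here and below, no share of all genes is given. Those counts therefore show how the calls depend on the fit and are no result about the 36 genes. Without negative control replicates 1 and 3, or without replicate 2, 15 or 13 genes were higher and 4 or 3 lower, the lone sample being assumed to vary like the other groups. Leaving out either sample of the pcDNA3.1 group gave 2 higher and 0 lower, either of the pcDNA3.1-MEG3 group 0 and 1, siRNA replicates 1 and 3 gave 2 and 0, and siRNA replicate 2 gave 2 and 1. With only the compared groups in the fit, or with normexp background correction, no member passed, and with normexp Aurkb differed by -1.17 and Cdc25c by 0.01. The 2 samples of the negative control differed by a median of 0.42 over the 36 genes, against 0.04 to 0.09 within the other groups. Replicate 2 was the lower for 20 genes and the higher for 16, by as much as 0.87 for Cenpe and 1.08 for Top2a.

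The second comparison set siRNA arrays against the mean of both plasmid groups, which replaces the negative control by arrays of other scans. Of the 36 genes, 7 were higher and 2 lower, 25% in all, against a background of 18.7% in either direction, 10.6% higher and 8.15% lower. The median was 0.34, against -0.11 over all genes. Arrays did not overlap for 20 genes that were higher (55.6%, against 25% of all genes) and for 6 that were lower (16.7%, against 25.3%). Without adjustment, 21 genes had a p under 0.05, as did 37.1% of all genes. This comparison shares its siRNA arrays with the first, so the same direction in both is not independent.

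Melk differed most clearly, 2.22-fold (1.15, SE 0.12, adjusted p = 0.00304), and Ccna2 by 1.78-fold (0.83, SE 0.12, adjusted p = 0.00897). From the values given above, Cdk1 was 3.28-fold higher than the plasmid mean (1.71, SE 0.22, adjusted p = 0.0093), again from siRNA replicate 2 alone. Its other two probes differed by 1.64 and -0.71. Aurkb read -6.78, -8.08 and -7.09 on arrays labelled pcDNA3.1 and -7.50, -9.07 and -7.55 on those labelled pcDNA3.1-MEG3, not well above background on any. With the background correction of the scanner files it was at least 1.85-fold higher on siRNA arrays (measured 2.07, SE 0.54, adjusted p = 0.0486). Aurkb entered the test only through its negative control and siRNA arrays, so this call is not independent of the filter on dim probes. The siRNA arrays, at -6.15 to -5.42, lay above all plasmid arrays.

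Mki67 read 2.52, 2.53 and 2.53 on pcDNA3.1 arrays and 2.36, 2.43 and 2.34 on pcDNA3.1-MEG3 arrays, below every siRNA array, and was 1.68-fold higher on siRNA (0.75, SE 0.17, adjusted p = 0.031). Birc5, the inhibitor of apoptosis protein of the passenger complex, read 3.38, 3.43 and 3.34 on siRNA arrays and 2.60 to 2.83 on the plasmid arrays, 1.60-fold apart (0.68, SE 0.13, adjusted p = 0.019). Ect2 was 1.50-fold higher (0.58, SE 0.13, adjusted p = 0.0323). Cdc25c was lower by at least 2.15-fold (measured -1.72, SE 0.34, adjusted p = 0.0226) and Ndc80 by 1.53-fold (-0.62, SE 0.14, adjusted p = 0.0303), and for both genes the 2 plasmid groups did not overlap each other. The bound for Cdc25c holds only for the background correction of the scanner files. Cdc25c entered the test only through groups other than siRNA, so its call here is not independent of the filter on dim probes. Hmmr, called against the negative control, did not pass here (0.34, SE 0.13, adjusted p = 0.116), nor did Plk1 (0.12, adjusted p = 0.462) or Ccnb1 (-0.25, SE 0.20, adjusted p = 0.395). Bub1 (0.54, adjusted p = 0.0515), Kif23 (0.72, adjusted p = 0.0638) and Tpx2 (0.40, adjusted p = 0.0653) fell just short of the threshold. So did Cenpa (0.60, adjusted p = 0.0667), Ccnb2 (0.73, adjusted p = 0.0677) and Anln (0.46, adjusted p = 0.0695).

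Higher and lower counts here were 18 and 6 without either negative control sample, 3 and 0 without either pcDNA3.1 sample, 3 and 0 or 1 and 0 without pcDNA3.1-MEG3 replicates 1 and 3 or replicate 2, and 3 and 1 or 2 and 1 without siRNA replicates 1 and 3 or replicate 2. Melk was called in all 8 of these and in 12 of 13 other settings, the exception being normexp background correction (1.26, adjusted p = 0.11), under which Aurkb differed by 0.13 and Cdc25c by -0.78. With each array centred on its median, 17 genes were higher and 1 lower, the median of all genes moving from -0.11 to 0.12.

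**Figure D3:**
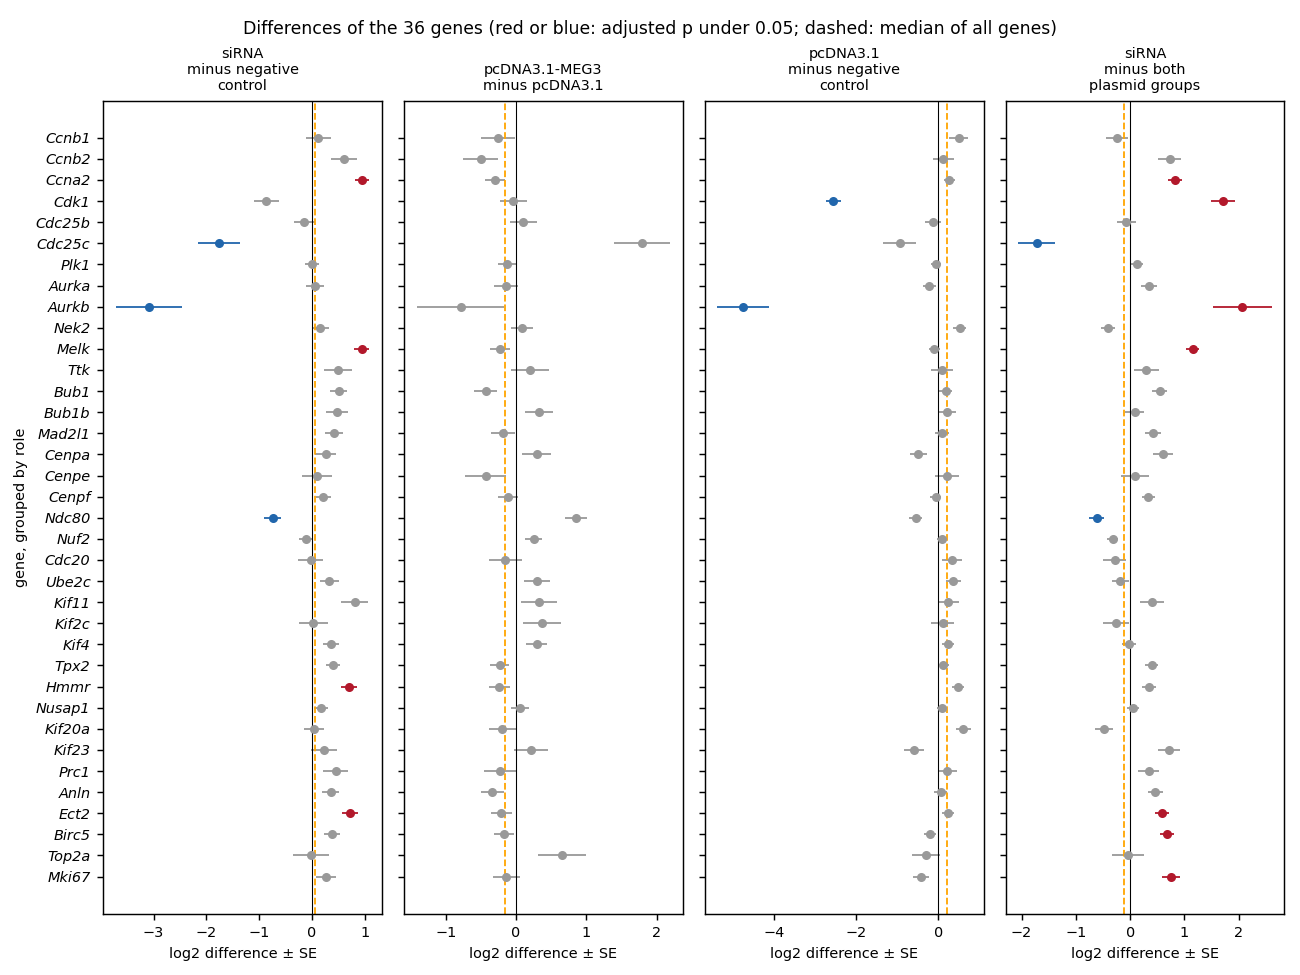
Log2 difference with its SE (bars) for each of the 36 genes in 4 comparisons, each panel on its own scale, with calls in red (higher) or blue (lower) and the median of all genes as a dashed line. Calls number 4 and 3, 0 and 0, 0 and 2, and 7 and 2 (higher and lower) from left to right, and most genes lie within 1 of 0.

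The 2 plasmid groups shared their scans, and between them 0 of the 36 genes passed in limma, where 0.00816% of all genes (2 of 24519) did. Without adjustment, 3 members (Cdc25c, Ndc80 and Bub1) had a p under 0.05, against 10.2% of all genes. The median difference, arrays labelled pcDNA3.1-MEG3 minus pcDNA3.1, was -0.14, against -0.16 over all genes, with 15 above 0 and 21 below. Arrays did not overlap for 13 genes that were higher (36.1%, against 17.9% of all genes) and 18 that were lower (50%, against 46.4%).

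Cdc25c had the largest difference (1.80, SE 0.40, adjusted p = 0.237), with 1.74 within the first scan of the plasmid arrays and 1.53 within the second. Ndc80 followed (0.85, SE 0.16, adjusted p = 0.183), at 0.85 and 0.89 within the scans, and then, among the higher, Top2a (0.65, SE 0.34, adjusted p = 0.565). The second of these scans held replicate 3 of each plasmid group alone. Since replicates 1 and 3 were counted as 1 sample, the values of both scans are not independent. Aurkb measured -0.79 (SE 0.62, adjusted p = 0.661) but was not well above background on any plasmid array, so no fold is given. Also on the lower side were Ccnb2 (-0.50, SE 0.25, adjusted p = 0.557), which read 2.27, 2.17 and 2.27 against 1.71, 1.72 and 1.73, and Bub1 (-0.43, SE 0.17, adjusted p = 0.477), which read 1.57, 1.50 and 1.57 against 1.10, 1.10 and 1.11. Ccnb1 (-0.26), Mki67 (-0.14), Plk1 (-0.13) and Cdk1 (-0.04) had adjusted p from 0.702 to 0.932. With only the 2 plasmid groups in the fit 3 genes passed as higher and 1 as lower, and without either negative control sample, whose spread the fit shares, 2 were higher and 2 lower.

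The 2 controls were compared as well, pcDNA3.1 minus the negative control, and here 0 genes were higher and 2 lower, 5.56% of the 36 against 17.9% of all genes (11.3% higher and 6.62% lower). The median of the 36 was 0.10, against 0.22 over all genes, and 7 members had an unadjusted p under 0.05, where 35.7% of all genes did. Arrays did not overlap for 10 genes that were higher (27.8%, against 41.4%) and 8 that were lower (22.2%, against 18.5%). Cdk1 was 5.885-fold lower on pcDNA3.1 arrays (-2.56, SE 0.19, adjusted p = 0.00359). Its other two probes differed by -4.45 and 0.88. Aurkb was lower by at least 14.3-fold (measured -4.76, SE 0.62, adjusted p = 0.00863), but with normexp background correction it differed by -0.41 (adjusted p = 0.788) and Cdk1 by -2.37 (adjusted p = 0.079). Aurkb passed the filter on dim probes only through the negative control and siRNA groups, so its call here is not independent of that filter. Kif20a, a kinesin of the central spindle (0.61, adjusted p = 0.0745), Nek2 (0.53, adjusted p = 0.0669) and Ndc80 (-0.55, adjusted p = 0.0632) came nearest among those that did not pass. Ccnb1 (0.50, adjusted p = 0.185), Mki67 (-0.41, adjusted p = 0.183) and Plk1 (-0.05, adjusted p = 0.79) did not pass.

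Cdk1 and Aurkb were called lower in each of the 8 fits without 1 sample. Without negative control replicates 1 and 3 there were 10 higher and 7 lower, without its replicate 2 there were 6 and 6, and with each array centred on its median, which moved the median of all genes from 0.22 to -0.23, there were 0 and 10. The comparison shares its negative control with the siRNA comparison and its pcDNA3.1 arrays with the one between the plasmids. For Cdk1 and Aurkb the negative control was the highest group, the siRNA group the second and both plasmid groups the lowest. For Aurkb no plasmid array was well above background.

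Promoter sequences, from 250 bases before to 50 after the start, were taken from RefSeq (GRCm38.p6) for 31 of the 36 genes, which had 33 such promoters. Aurkb, Ccna2, Cdc25c, Kif20a and Tpx2 had no entry. The cell cycle homology region was searched as TTTGAA or TTCGAA and the NF-Y box as CCAAT, on both strands, and 1 pair of matches overlapped in the 33 promoters. The first motif was in 75.8% of these promoters, against 19.2% of all 32851 promoters of that length, and the second in 75.8%, against 37.4%. Both were in 66.7%, against 7.52%. Ect2 and Prc1 each had overlapping promoters, so their shared sites were counted more than once. By gene, 23 of the 31 held the first motif, 23 the second and 20 both. Of 58 matches to CCAAT, 56 began before the start, and 24 of 35 matches to the homology region began no more than 50 bases before the start or after it. Birc5, Mad2l1, Melk, Nuf2 and Nusap1 held neither. A match here is a run of letters, not a measured binding site.

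**Figure D4:**
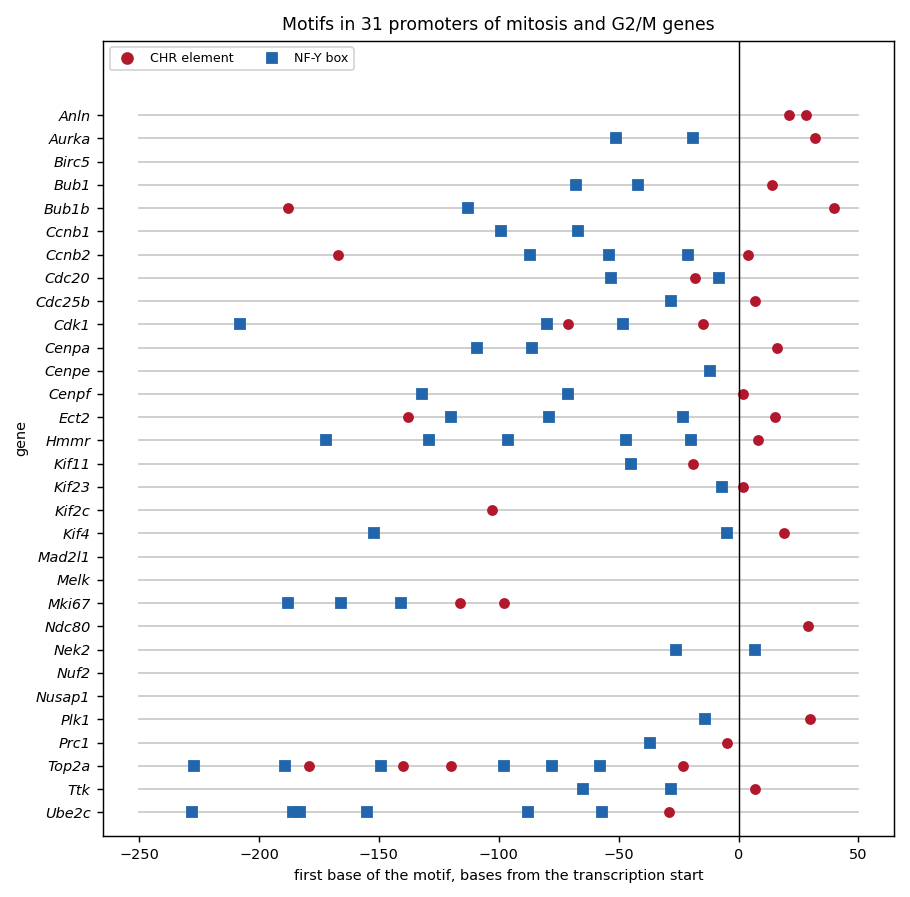
First base of each match to the cell cycle homology region (CHR, red circles) and the NF-Y box (blue squares) in 1 promoter for each of 31 genes, by distance in bases from the transcription start (vertical line at 0). Blue squares lie mostly before the start and most red circles in the last 50 bases before it or after it. Over all 33 promoters this holds for 56 of 58 and 24 of 35, with sites shared by overlapping promoters counted more than once.

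Of the promoters, 5 are printed for the genes whose calls the results turn on, on GRCm38.p6, in lower case with matches in capitals. Cdk1 (chr10:69352863-69353162, minus strand) was lowest on plasmid arrays and holds both motifs, with CCAAT read on the opposite strand as ATTGG. Ect2 (chr3:27153805-27154104, minus strand) and Hmmr (chr11:40733388-40733687, minus strand) were highest on siRNA arrays and hold both. Melk (chr4:44300667-44300966, plus strand) had the lowest adjusted p of the members on siRNA arrays against the plasmid mean and holds neither. Ndc80 (chr17:71526808-71527107, minus strand) was lowest on siRNA arrays and holds the homology region alone, on the opposite strand.
Cdk1: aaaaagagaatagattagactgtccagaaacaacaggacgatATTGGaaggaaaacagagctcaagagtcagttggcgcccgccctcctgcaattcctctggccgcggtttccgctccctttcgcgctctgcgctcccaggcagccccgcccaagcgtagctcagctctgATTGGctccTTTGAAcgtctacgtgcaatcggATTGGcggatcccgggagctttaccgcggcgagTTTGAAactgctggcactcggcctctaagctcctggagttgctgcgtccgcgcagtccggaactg
Ect2: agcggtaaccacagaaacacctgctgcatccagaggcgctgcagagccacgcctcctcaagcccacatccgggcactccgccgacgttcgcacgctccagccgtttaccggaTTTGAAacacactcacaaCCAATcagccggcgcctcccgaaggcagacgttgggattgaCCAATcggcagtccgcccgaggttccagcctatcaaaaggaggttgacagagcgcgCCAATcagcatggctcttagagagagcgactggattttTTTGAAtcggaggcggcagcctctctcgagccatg
Hmmr: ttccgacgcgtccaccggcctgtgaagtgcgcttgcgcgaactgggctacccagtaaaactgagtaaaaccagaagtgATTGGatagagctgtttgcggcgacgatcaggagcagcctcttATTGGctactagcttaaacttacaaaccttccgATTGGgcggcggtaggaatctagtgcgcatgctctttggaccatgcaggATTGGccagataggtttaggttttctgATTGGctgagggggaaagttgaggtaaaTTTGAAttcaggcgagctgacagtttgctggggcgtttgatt
Melk: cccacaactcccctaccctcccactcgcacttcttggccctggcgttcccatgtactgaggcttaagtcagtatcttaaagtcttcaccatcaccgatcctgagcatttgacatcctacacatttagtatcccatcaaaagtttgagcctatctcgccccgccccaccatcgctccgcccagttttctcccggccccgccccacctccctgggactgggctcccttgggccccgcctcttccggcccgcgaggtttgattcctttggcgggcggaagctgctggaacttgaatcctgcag
Ndc80: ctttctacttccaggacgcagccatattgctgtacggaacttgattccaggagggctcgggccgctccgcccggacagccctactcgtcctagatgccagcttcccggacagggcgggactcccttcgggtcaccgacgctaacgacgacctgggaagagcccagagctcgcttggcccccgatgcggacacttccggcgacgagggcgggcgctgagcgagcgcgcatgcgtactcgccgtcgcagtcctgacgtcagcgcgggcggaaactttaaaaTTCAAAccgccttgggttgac

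Over the 20 genes with both motifs, the median difference of siRNA from the negative control was 0.30, with 2 higher and 0 lower, and over the 11 with a promoter but not both it was 0.16, with 1 higher and 1 lower. Over all genes the median was 0.06, with 7.75% higher and 4.64% lower. Against the plasmid mean the medians were 0.34 and 0.06, and -0.11 over all genes. These are descriptions of overlapping ranges (-0.86 to 0.82 and -0.74 to 0.94 against the negative control) with no test between them.

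The factors that act on these promoters were measured in a list of 12 genes. Mybl2, which encodes B-Myb, rose on siRNA arrays against the negative control (1.35, SE 0.15, adjusted p = 0.00615), as did Foxm1 (1.02, SE 0.23, adjusted p = 0.0423) and Tfdp1, a dimer partner of E2F proteins (0.86, adjusted p = 0.0186). E2f4, the E2F of the DREAM complex, fell (-1.56, SE 0.18, adjusted p = 0.00657). The group means of Foxm1 were 0.53 on negative control, 0.40 on pcDNA3.1, 0.26 on pcDNA3.1-MEG3 and 1.55 on siRNA arrays, and those of Mybl2 were -0.65, 0.25, 0.13 and 0.70. Against the plasmid mean Foxm1 was higher (1.22, adjusted p = 0.0124), as were Mybl2 (0.51, adjusted p = 0.0476) and E2f4 (1.86, adjusted p = 0.00142). On pcDNA3.1 against the negative control Mybl2 was higher (0.90, adjusted p = 0.0169), E2f4 lower (-3.49, adjusted p = 0.00055), and Foxm1 did not pass (-0.13, adjusted p = 0.707).

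Another 5 lists held the rest of the mitotic machinery, and with the transcription list they covered 120 genes, of which 118 were measured. On siRNA arrays against the negative control 18 were higher and 2 lower (16.9%, against the background of 12.4%), with a median of 0.35. Outside the transcription list, whose Mybl2 and E2f4 differed by more, the largest called differences were those of the condensin subunit Ncapg2 (1.10) in the chromosome list, where 2 of 19 rose, Racgap1 (1.04), the partner of Kif23 in centralspindlin, and Gtse1 (-1.29), a microtubule protein of G2, in the spindle list (3 higher and 1 lower of 23), and the centromere protein Cenpp (1.00) in the kinetochore list (7 higher and 0 lower of 34). Fbxo5, the inhibitor of the anaphase-promoting complex, was higher by 0.83 (1 of 15), and Haspin, a histone kinase of mitosis, by 0.78 (2 of 15). Against the plasmid mean 23 were higher and 3 lower (22%, against 18.7%), with E2f4 (1.86) the largest. The largest called rises in each of the other 5 lists were Cenpp (1.61), Depdc1a (1.17), Mastl (0.91), Fbxo5 (0.66) and Ncapg2 (0.60), with Cenpq (-0.73), Anapc10 (-0.66) and Psrc1 (-0.65) called lower.

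Between the controls 12 of the 118 were higher and 7 lower (16.1%, against 17.9%). They included Cenpq (1.00), Anapc10 (0.87), Wee1, the kinase that holds Cdk1 inactive (0.84), Ncapg2 (0.69) and Kifc1 (0.62) among the higher, and Gtse1 (-2.13), Ska2 (-1.74) and Ube2s (-0.86) among the lower. Between the plasmids 0 of 118 passed. Set beside these were 45 genes that act in G1/S or copy DNA. On siRNA arrays against the negative control 18 were higher and 1 lower (42.2%, against 12.4% of all genes, median 0.66). Against the plasmid mean 9 were higher and 2 lower (24.4%, beside 25% of the members and 18.7% of all genes). Between the controls 11 were higher and 1 lower (26.7%, against 17.9% of all genes). On siRNA arrays against the negative control 1 of 11 measured inhibitors, pocket proteins and D cyclins was higher (Rbl1, 0.87) and 0 lower. That was 9.09%, against 12.4% of all genes. The differences between lists were not tested.

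**Figure D5:**
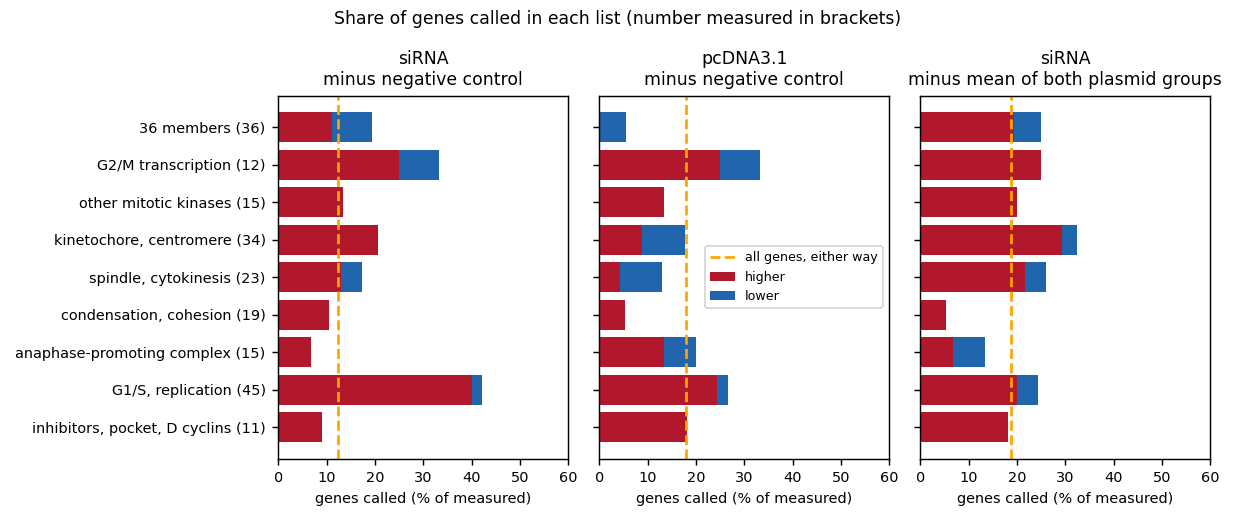
Percent of the measured genes of each list (number in brackets) called higher (red) or lower (blue) in 3 comparisons, with the percent of all genes called in either direction as a dashed line. On siRNA arrays against the negative control the 36 members stand at 19.4% and the G1/S and replication list at 42.2%, and between the controls the members stand at 5.56%.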

How the data were processed

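RNA of the mouse C2C12 line, on 3 arrays for each of 4 transfection groups, was labelled with Cy3 and hybridised to Agilent arrays, per the labels. Per the file headers, the authors' scanner files hold spot intensity values on a linear scale from Feature Extraction 11.0.1.1, which takes off the background around each spot and a trend across the array and does not scale arrays to each other. The deposited flags, scores of 0 or 1 in other columns, mark spots well above background, outlying or saturated. Processed intensity values deposited for the whole series, whose scaling the sources used here do not give, served as an alternative.

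Each array had 44397 spots. The 1377 control spots and spots marked as outlying did not enter, and the log2 signals of repeat spots were averaged. The 75th percentile, 1168 to 2266 in signal units, was subtracted. Between 62.0 and 75.9% of 39429 probes were well above background on an array, and 0 spots were saturated. Accessions gave 27234 probes a RefSeq symbol (GRCm38.p6, used for names and promoters). The array files name build mm9, and no coordinates were taken from them. The filter left 29611 probes and 24519 genes, 16771 with a symbol. Of 36 members, 8 had 12 other kept probes, of which 7 had the sign of the chosen probe for siRNA minus negative control, 5 between the plasmids, 10 between the controls and 8 against the plasmid mean.

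Replicates 1 and 3 of a group were averaged because their difference was under the noise between repeat spots. In 3 groups, all but the negative control, they also shared a slide position. Other pairs near that noise (0.790 to 1.06 times it, and under it in both plasmid groups) were kept as 2 samples. The 8 samples entered 1 fit in limma 3.58.1 (R 4.3.3, data.table version 1.17.8) with a mean per group and 4 residual and 1.9 prior degrees of freedom, and p-values were adjusted by Benjamini-Hochberg over all genes, two-sided. The number of arrays limits the precision. The script was tested on simulated data. Where a probe was not well above background on every array of the dimmer group, the fold is a bound, as described where first used. Such a bound holds for the background correction of the scanner files and not for normexp.

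The 36 members, the other lists and the averaging were chosen with earlier results of these data known. All members are named. Values on every array are given for called members, at most 4 in each direction per comparison, and for Ccnb1, Cdk1, Plk1 and Mki67. From other lists Foxm1, Mybl2 and the largest called difference in each direction are named. E2f4, Tfdp1, Kifc1 and Rbl1 follow from that rule or were added after their values were seen. Alternatives covered the summary of replicates, scaling, background, filters, probe choice, the samples fitted, a replicate block and leaving out samples. Keeping outlying spots was added after the data were seen. The normexp alternative used median spot and background signals in place of mean signals.

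Replicate numbers did not pair samples, since deviations of same-numbered arrays correlated at -0.073 to 0.034.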

Additional observations from a re-analysis of the deposited data

How the results depend on the processing

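Counts of the 36 genes called are given as higher and lower, and they stood at 4 and 3 for siRNA minus negative control, 0 and 0 between the plasmids, 0 and 2 between the controls and 7 and 2 for siRNA against the plasmid mean. Where they come from another setting, these counts have no share of all genes beside them and are no result about the members. For siRNA minus negative control they were 16 and 4 with 12 arrays as 12 samples, 2 and 3 with median centring, 3 and 4 with quantile normalisation, 2 and 1 with no filter on dim probes, 4 and 1 with only probes well above background on all 12 arrays, and 0 and 0 with normexp background or with only the compared groups. The remaining settings gave 4 or 5 higher and 3 or 4 lower. Between the plasmids they were 3 and 2 with 12 samples, 3 and 1 with only the compared groups and 0 and 0 in every other setting with all samples. Between the controls they were 6 and 8 with 12 samples, 2 and 3 with negative control replicates 1 and 3 kept apart, 0 and 10 with median centring, 1 and 4 with quantile normalisation, 0 and 0 with normexp, 1 and 2 with all arrays above background, 0 and 3 with the mean of kept probes and 1 and 4 with the deposited series values. Against the plasmid mean they were 19 and 5 with 12 samples, 17 and 1 with median centring, 12 and 3 with quantile normalisation, 0 and 0 with normexp, 4 and 1 with no filter, 12 and 1 with all arrays above background, 7 and 3 with the mean of probes, 11 and 5 with the deposited series values and 18 and 6 with only the compared groups. A replicate block gave 2 and 1, 0 and 0, 0 and 2, and 5 and 1 in these 4 comparisons, in a design whose numbers do not pair samples. Without 1 sample the counts ranged from 0 to 15 and 0 to 4, 0 to 2 and 0 to 2, 0 to 10 and 2 to 7, and 1 to 18 and 0 to 6.

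Signs turned for 4 values that passed the test in at least 1 setting, and the cause was not tested. Cdc25c on siRNA minus negative control was 0.0144 with normexp (adjusted p = 0.995). Mad2l1 on siRNA against the plasmid mean was -0.75 with the mean of its probes (adjusted p = 0.0492). On siRNA minus negative control, Cdc20 ran from -0.38 without negative control replicate 2 to 0.34 without its replicates 1 and 3 (adjusted p = 0.0333), and Top2a from -0.55 without replicates 1 and 3 to 0.53 without replicate 2 (adjusted p = 0.022). The number of arrays and, for Aurkb and Cdc25c, signal near background limit these values.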

Other observations

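The order of groups seen for Cdk1 and Aurkb, with the negative control highest and the plasmid arrays lowest, was that of 3 of the 36 members (8.33%, the other being Plk1, whose siRNA and negative control means differed by 0.0005), 11 of 174 genes of the lists set beside them (6.32%) and 9.1% of all genes. Gtse1 and E2f4 are named among the 11 after their values were seen. Gtse1, a microtubule protein of G2, had group means of -0.12 on negative control, -2.25 on pcDNA3.1, -2.09 on pcDNA3.1-MEG3 and -1.41 on siRNA arrays, well above background on 3 of 3 arrays of each group. E2f4 had means of -0.23, -3.72, -3.59 and -1.80 in the same order of groups.

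Among the 8 members with other kept probes, size or sign differed from the brightest probe for several, Cdk1 among them, and 3 more are given here, chosen after their values were seen. The other two kept probes of Mad2l1, a checkpoint protein, differed by -1.35 and -1.32 on siRNA arrays against the plasmid mean, where the brightest differed by 0.42. Those of Birc5 differed by -0.19 and -0.29 on siRNA arrays against the negative control, where the brightest differed by 0.38. Those of Ccnb1 differed by 0.42 and -0.15 on siRNA arrays against the plasmid mean, where the brightest differed by -0.25. Which probe follows the transcript was not tested.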
